A study of Homo sapiens with 6 samples.

Results

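The genes described here are the better expressed ZNF genes, that is, genes whose symbol is ZNF followed by a digit and whose level averaged at least 3 FPKM over 6 RNA sequencing libraries of the line 92.1. FPKM gives fragments relative to transcript length and to the fragments mapped in a library, and was added up over all transcripts listed for a gene. Within the ZNF genes, the members were chosen by this mean level, with no use of the difference between the groups. Of 12010 named genes, 438 were ZNF genes, 264 of these were members and 174 averaged below 3 FPKM. The line 92.1 is an established human uveal melanoma line, so all samples stand for 1 cell line. In the LBH589 group, 3 samples were exposed to 0.1 µM LBH589 for 24 h, and in the DMSO group, 3 samples were given the solvent for the same 24 h. LBH589 (panobinostat) inhibits histone deacetylases, the enzymes that take acetyl groups off histones. No label says whether the 3 samples of a group came from separate cultures, so the p-values cover the spread between these samples alone, and that spread may be technical.

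ZNF proteins carry C2H2 zinc fingers, short folds held by a zinc ion between a pair of cysteines and a pair of histidines, and a row of such fingers reads a stretch of DNA. The largest class adds a KRAB domain, which binds the scaffold protein TRIM28 (KAP1), and TRIM28 brings the histone methyltransferase SETDB1, HP1 proteins and the NuRD deacetylase complex to the bound site. Many KRAB zinc finger genes sit side by side in clusters on chromosome 19, arose by duplication and bind transposable elements. Other ZNF genes without a KRAB domain code for corepressor subunits, activators, or proteins of RNA, the ribosome and mitosis. The symbol is therefore a family name, and it covers unlike functions.

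The label held against the coding sequences, which were translated from the GENCODE 29 transcripts. At least 1 finger motif was found in every member except 4, namely ZNF330, ZNF503, ZNF703 and ZNF839. The median was 11 fingers per protein and the highest number was 33, in ZNF462. A KRAB A box was found in 172 members and not in the other 92. Chromosome 19 held 127 members and chromosome 7 held 17.

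The promoters of 8 members are shown because they hold, or lack, letters that the promoters of some gene neighbourhoods shared. They are the 250 bases before the annotated start, from RefSeq on GRCh38.p14, and CCAAT or its reverse complement ATTGG is in capitals. The first 3 belong to the largest falls among KRAB members, the next 3 to the largest rises among KRAB members with an entry in the promoter table, and ZNF107 and ZNF14 were added after their values were seen.
ZNF724: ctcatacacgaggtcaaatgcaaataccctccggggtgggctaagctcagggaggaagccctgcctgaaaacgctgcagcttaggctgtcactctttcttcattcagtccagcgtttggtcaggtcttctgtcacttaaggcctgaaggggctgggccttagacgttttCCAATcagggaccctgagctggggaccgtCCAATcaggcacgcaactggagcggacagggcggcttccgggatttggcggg
ZNF93: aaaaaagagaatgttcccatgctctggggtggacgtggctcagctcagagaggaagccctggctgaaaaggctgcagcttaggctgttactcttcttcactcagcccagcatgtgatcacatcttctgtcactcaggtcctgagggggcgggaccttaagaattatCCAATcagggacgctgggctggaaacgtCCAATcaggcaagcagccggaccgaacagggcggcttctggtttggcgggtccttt
ZNF43: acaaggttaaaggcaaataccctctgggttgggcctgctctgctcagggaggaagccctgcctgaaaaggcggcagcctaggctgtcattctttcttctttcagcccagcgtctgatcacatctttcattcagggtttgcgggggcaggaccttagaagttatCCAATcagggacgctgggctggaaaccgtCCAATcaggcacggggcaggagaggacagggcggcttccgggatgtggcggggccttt
ZNF10: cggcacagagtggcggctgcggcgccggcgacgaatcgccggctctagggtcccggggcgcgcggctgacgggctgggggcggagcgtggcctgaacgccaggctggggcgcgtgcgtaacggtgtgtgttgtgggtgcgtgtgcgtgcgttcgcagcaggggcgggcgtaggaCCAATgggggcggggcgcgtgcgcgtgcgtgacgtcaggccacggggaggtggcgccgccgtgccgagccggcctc
ZNF404: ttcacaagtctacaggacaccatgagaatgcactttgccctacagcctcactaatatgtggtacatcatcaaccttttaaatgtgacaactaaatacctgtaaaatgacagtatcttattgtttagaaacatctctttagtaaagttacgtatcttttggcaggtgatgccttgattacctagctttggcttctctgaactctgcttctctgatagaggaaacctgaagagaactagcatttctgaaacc
ZNF841: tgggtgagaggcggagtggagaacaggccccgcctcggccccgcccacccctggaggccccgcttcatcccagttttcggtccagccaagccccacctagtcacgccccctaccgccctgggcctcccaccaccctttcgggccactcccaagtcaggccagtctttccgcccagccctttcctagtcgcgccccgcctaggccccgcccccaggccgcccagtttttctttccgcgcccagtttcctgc
ZNF107: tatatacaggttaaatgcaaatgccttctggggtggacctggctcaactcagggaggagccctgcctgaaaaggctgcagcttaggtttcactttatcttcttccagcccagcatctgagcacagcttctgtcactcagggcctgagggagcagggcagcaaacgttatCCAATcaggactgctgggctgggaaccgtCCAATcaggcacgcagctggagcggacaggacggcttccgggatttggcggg
ZNF14: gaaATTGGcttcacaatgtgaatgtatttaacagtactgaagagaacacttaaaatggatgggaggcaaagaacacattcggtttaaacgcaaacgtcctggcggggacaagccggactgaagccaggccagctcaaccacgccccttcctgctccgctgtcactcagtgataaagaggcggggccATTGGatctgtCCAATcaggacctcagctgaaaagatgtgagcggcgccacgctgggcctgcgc
The windows lie at chr19:23250395-23250644 on the minus strand for ZNF724, chr19:19900696-19900945 on the plus strand for ZNF93, chr19:21836183-21836432 on the minus strand for ZNF43, chr12:133130377-133130626 on the plus strand for ZNF10, chr19:43883965-43884214 on the minus strand for ZNF404, chr19:52095766-52096015 on the minus strand for ZNF841, chr7:64665883-64666132 on the plus strand for ZNF107 and chr19:19733113-19733362 on the minus strand for ZNF14. The windows of ZNF724, ZNF93, ZNF43 and ZNF107 each hold the 8 letters CCAATCAG 2 times, a short distance apart and close to the start. ZNF14 holds it 1 time, beside 2 copies of ATTGG. The window of ZNF10 has 1 CCAAT without those letters and 40 CpG pairs, and the windows of ZNF404 and ZNF841 have no CCAAT.

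After LBH589, ZNF genes moved in both directions, KRAB repressors such as ZNF10, ZNF471 and ZNF404 upward and ZNF93, ZNF43 and ZNF724 downward among the largest changes. Of these, ZNF471 and ZNF404 averaged 3 FPKM or more only in the LBH589 group, and ZNF93, ZNF43 and ZNF724 only in the DMSO group. Part of the difference in these genes therefore follows from the threshold. Of the 264 members, 64 (24.2%) rose and 52 (19.7%) fell at a limma adjusted p below 0.05, and 148 did not pass. Over all 11520 genes tested, 27.2% rose and 21.6% fell, and over the 8355 genes that averaged at least 3 FPKM, 26.1% rose and 24.1% fell. Counted in either direction, 43.9% of the members passed, against 48.8% of all genes tested and 50.2% of those averaging at least 3 FPKM. The shares of called members are near the background in both directions. The median difference of mean log2(FPKM + 1), LBH589 minus DMSO, was 0.17 over the members, 0.08 over all genes tested and 0.03 over genes averaging at least 3 FPKM. Member differences ran between -2.79 and 2.06, with 25 rises and 25 falls past 2-fold on this scale, while over all genes tested they ran between -5.46 and 9.13. The values of the LBH589 and the DMSO group did not overlap in 159 members (60.2%), 92 of them higher and 67 lower after LBH589, against 59.5% of all genes tested and 61.0% of those averaging at least 3 FPKM. All 64 rises and all 52 falls were among these 159, so a lack of overlap adds nothing to the call of a member. With all library sums made equal, 86 members rose and 39 fell, a share of rises of 68.8% among called members against 55.2% without that scaling, and the median of all genes tested moved up by 0.145. No member that passed was called in the other direction under any of the 17 alternative settings. In bulk RNA, fewer cells of a type and less RNA per cell cannot be told apart.

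**Figure D1:**
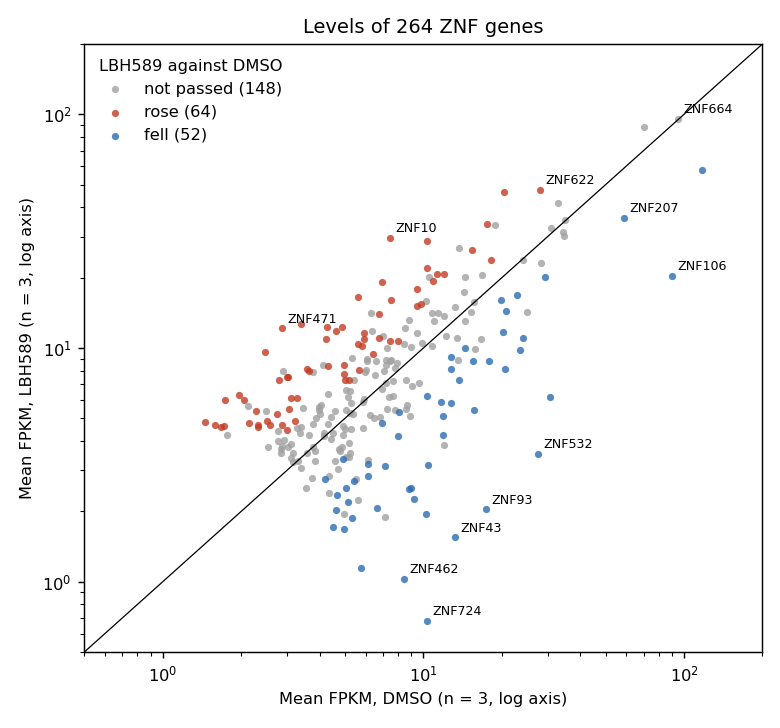
Mean FPKM of the 264 ZNF genes in the 3 LBH589 libraries (vertical, log axis) against the 3 DMSO libraries (horizontal, log axis), with the line of equal levels, coloured by the limma call at adjusted p below 0.05. The 64 rises lie above the line and the 52 falls lie below it, while 148 genes did not pass.

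Most members were low. The lowest mean over the 6 libraries was 3.001 FPKM, the median was 6.37 FPKM and the highest was 95.4 FPKM, and 190 members averaged below 10 FPKM. A member of low level can reach the mean of 3 FPKM through 1 group only and then has to differ between the groups. This was so for 31 members with only the LBH589 mean at 3 FPKM or more, 20 of which rose, and for 28 with only the DMSO mean there, 20 of which fell. Among the 205 members with both means at 3 FPKM or more, 44 rose and 32 fell.

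Counts by protein structure and chromosome are a description, and differences between these classes were not tested. Of the 172 KRAB members, 47 rose and 27 fell, with a median difference of 0.26 on the log2(FPKM + 1) scale. Of the 92 members without a KRAB A box, 17 rose and 25 fell, with a median of 0.02. Rises were 27.3% of the KRAB members and 18.5% of the others, and falls were 15.7% and 27.2%. Over all genes tested, 27.2% rose and 21.6% fell, and over those averaging at least 3 FPKM, 26.1% and 24.1%. On chromosome 19, 34 of 127 members rose and 21 fell, and on the other chromosomes 29 of 136 rose and 31 fell, while ZNF781, which rose, had no chromosome in the table. By number of fingers, 6 rose and 13 fell of the 42 members with fewer than 5, 18 rose and 10 fell of 64 with 5 to 9, 19 rose and 16 fell of 86 with 10 to 14, and 21 rose and 13 fell of 72 with 15 or more.

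**Figure D2:**
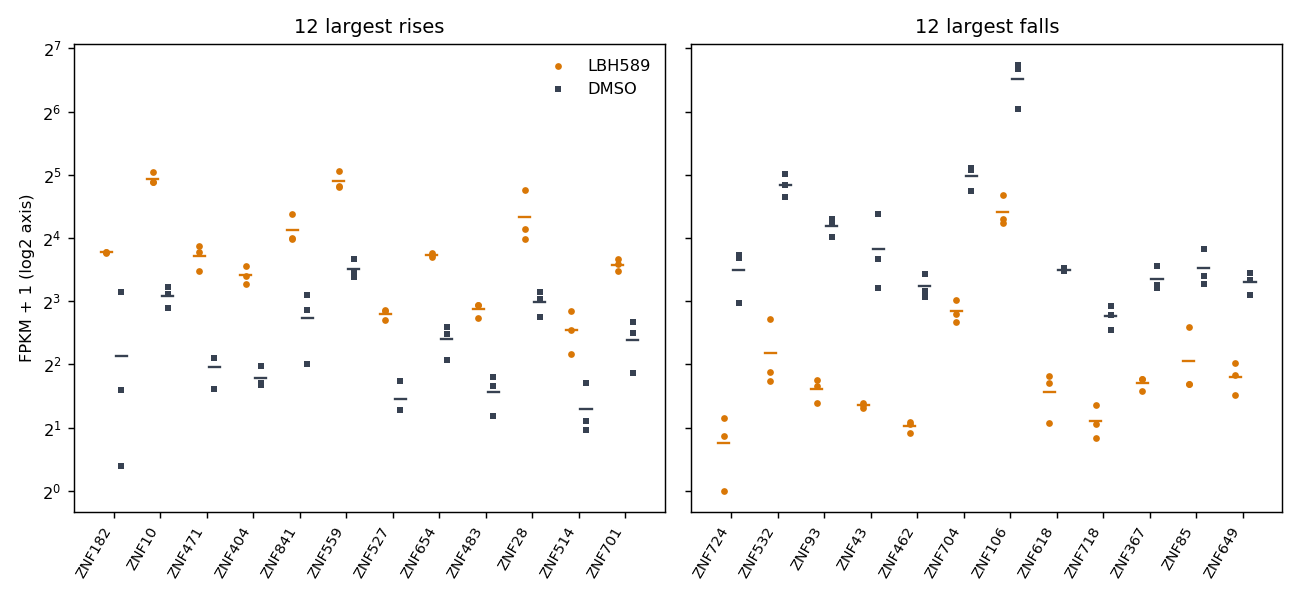
FPKM + 1 (log2 axis) in each library for the 12 largest rises (left) and the 12 largest falls (right), with LBH589 as circles, DMSO as squares and the mean of each group as a line. All 24 genes were chosen among called members whose LBH589 and DMSO libraries do not overlap. ZNF182 has the widest DMSO spread on this axis, between 0.309 and 7.87 FPKM.

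Of the 12 largest rises, 11 were KRAB genes, beside 172 of all 264 members. Their low level in the DMSO libraries follows in part from the threshold. ZNF471, ZNF404, ZNF527, ZNF483 and ZNF514 reached a mean of 3 FPKM only in the LBH589 group. ZNF10 (KOX1), whose KRAB domain is the one commonly fused to DNA binding proteins as an artificial repressor, had 28.6, 28.4 and 32.03 FPKM in the LBH589 libraries, against 7.64, 8.34 and 6.38 FPKM in the DMSO libraries. It rose 3.98-fold by group means, with a difference of 1.86 ± 0.12 (SE) and a limma adjusted p of 1.06e-04. ZNF471, a KRAB gene of chromosome 19, had 10.1, 13.6 and 12.7 FPKM in the LBH589 libraries, against 2.07, 3.28 and 3.28 FPKM in the DMSO libraries. The 3 LBH589 libraries of ZNF471 were each above 10 FPKM and the 3 DMSO libraries below 4 FPKM, a difference of 1.77 ± 0.19 (SE; limma adjusted p = 6.53e-04).

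ZNF404 had 8.702, 10.7 and 9.52 FPKM in the LBH589 libraries, against 2.28, 2.19 and 2.91 FPKM in the DMSO libraries, a difference of 1.62 ± 0.14 (SE; limma adjusted p = 2.89e-04). ZNF559 had 26.8, 32.2 and 27.3 FPKM in the LBH589 libraries, against 9.43, 11.8 and 9.89 FPKM in the DMSO libraries, a difference of 1.39 ± 0.13 (SE; limma adjusted p = 3.39e-04). Both groups were tight in these 2 genes, and the lowest LBH589 library was over 2 times the highest DMSO library. ZNF527 had 5.53, 6.15 and 6.27 FPKM in the LBH589 libraries, against 1.42, 1.44 and 2.33 FPKM in the DMSO libraries (difference 1.37, SE 0.17, limma adjusted p = 0.00105). ZNF483 had 6.65, 6.71 and 5.62 FPKM in the LBH589 libraries, against 1.26, 2.47 and 2.14 FPKM in the DMSO libraries (difference 1.33, SE 0.19, limma adjusted p = 0.00214). The rise of ZNF559 rests on the sum of its 9 listed transcripts: with the most abundant transcript alone the call was lost, at a limma adjusted p of 0.3899.

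ZNF654, the only gene without a KRAB A box among the 12 largest rises, had 12.6, 12.04 and 12.2 FPKM in the LBH589 libraries, against 3.204, 4.58 and 5.04 FPKM in the DMSO libraries. Its LBH589 libraries were nearly equal, and the difference was 1.35 ± 0.16 (SE; limma adjusted p = 9.33e-04). ZNF514, the lowest of the 12, had 6.21, 3.48 and 4.83 FPKM in the LBH589 libraries, against 2.28, 0.956 and 1.15 FPKM in the DMSO libraries, with groups that did not overlap and a difference of 1.26 ± 0.27 (SE; limma adjusted p = 0.0101). The highest fitted rise was the least even one. ZNF182, an X-linked KRAB gene, had 12.8, 12.5 and 12.7 FPKM in the LBH589 libraries, against 7.87, 0.309 and 2.03 FPKM in the DMSO libraries. Its LBH589 libraries were nearly equal, while DMSO replicate 1 stood far above DMSO replicates 2 and 3. The difference was 2.06 ± 0.65 (SE) with a limma adjusted p of 0.0415, and the call was lost in 8 of 17 alternative settings, among them leaving out DMSO replicate 2 or 3.

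The largest falls comprised KRAB genes and genes of other classes in equal number. ZNF724, ZNF93, ZNF43, ZNF718, ZNF649, ZNF462, ZNF618 and ZNF367 reached a mean of 3 FPKM only in the DMSO group. The low level of these genes after LBH589 follows in part from the threshold. ZNF724, a KRAB gene of chromosome 19, had 1.22, 0 and 0.826 FPKM in the LBH589 libraries, against 6.83, 11.8 and 12.2 FPKM in the DMSO libraries. It is listed at 0 in LBH589 replicate 2, which may be a failed estimate, and the fitted difference was -2.79 ± 0.36 (SE; limma adjusted p = 0.00135). ZNF93, known to repress a set of LINE-1 elements, had 1.63, 2.14 and 2.35 FPKM in the LBH589 libraries, against 15.2, 18.1 and 18.7 FPKM in the DMSO libraries. The LBH589 mean was 0.118 times the DMSO mean, with a difference of -2.59 ± 0.15 (SE) and a limma adjusted p of 6.70e-05, the smallest among the 24 genes.

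ZNF43 had 1.47, 1.62 and 1.56 FPKM in the LBH589 libraries, against 8.27, 11.7 and 19.7 FPKM in the DMSO libraries, a difference of -2.40 ± 0.29 (SE; limma adjusted p = 0.00107). Its DMSO libraries spread widely, yet each was over 5 times every LBH589 library. The 2 listed ZNF43 transcripts changed places within the DMSO group: 1 was at 0 in 5 libraries and at 17.4 FPKM in DMSO replicate 3, and with the most abundant transcript alone the limma adjusted p was 0.0776. ZNF85 had 2.24, 2.22 and 5.01 FPKM in the LBH589 libraries, against 8.62, 13.2 and 9.51 FPKM in the DMSO libraries, a difference of -1.51 ± 0.30 (SE; limma adjusted p = 0.00714). LBH589 replicate 3 of ZNF85 was the nearest to the DMSO libraries but did not reach them, and with the most abundant transcript alone the limma adjusted p was 0.254. ZNF718, a KRAB gene of chromosome 4, had 1.57, 1.08 and 0.788 FPKM in the LBH589 libraries, against 4.85, 5.899 and 6.56 FPKM in the DMSO libraries (difference -1.66, SE 0.19, limma adjusted p = 7.63e-04).

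Among the falls without a KRAB A box were genes of high DMSO level. ZNF106, a protein with few fingers that binds RNA, had 18.6, 17.8 and 24.7 FPKM in the LBH589 libraries, against 64.9, 101 and 105 FPKM in the DMSO libraries. It was among the 6 highest members by mean and fell to 0.226 times its DMSO mean, a difference of -2.08 ± 0.22 (SE; limma adjusted p = 6.85e-04). ZNF704 had 5.98, 7.14 and 5.38 FPKM in the LBH589 libraries, against 25.9, 32.7 and 33.5 FPKM in the DMSO libraries, a difference of -2.14 ± 0.15 (SE; limma adjusted p = 1.29e-04). ZNF462, the member with the most fingers, had 1.09, 1.12 and 0.875 FPKM in the LBH589 libraries, against 7.42, 7.98 and 9.804 FPKM in the DMSO libraries, a difference of -2.21 ± 0.15 (SE; limma adjusted p = 1.07e-04). In these 3 genes the highest LBH589 library lay well below the lowest DMSO library.

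ZNF618, known as a reader of hydroxymethylated DNA, had 1.105, 2.51 and 2.26 FPKM in the LBH589 libraries, against 10.2, 10.1 and 10.5 FPKM in the DMSO libraries (difference -1.96, SE 0.21, limma adjusted p = 7.09e-04). The DMSO libraries of ZNF618 were nearly equal, and LBH589 replicate 1 was the lowest. ZNF367 had 2.396, 2.397 and 2.001 FPKM in the LBH589 libraries, against 8.26, 8.56 and 10.8 FPKM in the DMSO libraries (difference -1.64, SE 0.15, limma adjusted p = 2.98e-04). ZNF649, a KRAB gene of chromosome 19, had 3.07, 1.85 and 2.58 FPKM in the LBH589 libraries, against 9.097, 7.51 and 9.92 FPKM in the DMSO libraries (difference -1.50, SE 0.18, limma adjusted p = 9.99e-04). Its neighbours are described below with the run ZNF577 to ZNF331.

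Beyond these 24 genes, the other rises past 2-fold were ZNF347, ZNF558, ZNF528, ZNF782, ZNF711, ZNF445, ZNF396, ZNF572, ZNF879, ZNF781, ZNF577, ZNF211 and ZNF780B, with differences between 1.01 and 1.20. ZNF711, an X-linked gene whose protein binds the histone demethylase PHF8, had 42.8, 47.7 and 48.9 FPKM in the LBH589 libraries, against 15.5, 23.8 and 22.2 FPKM in the DMSO libraries (difference 1.16, SE 0.17, limma adjusted p = 0.002303). ZNF558 had 4.76, 4.81 and 4.41 FPKM in the LBH589 libraries, against 2.27, 0.295 and 2.57 FPKM in the DMSO libraries, where DMSO replicate 2 stood apart from the other DMSO libraries (difference 1.19, SE 0.40, limma adjusted p = 0.0476). ZNF782, a KRAB gene of chromosome 9, had 10.4, 11.1 and 15.6 FPKM in the LBH589 libraries, against 4.38, 5.22 and 4.97 FPKM in the DMSO libraries (difference 1.17, SE 0.17, limma adjusted p = 0.00219). All 3 had LBH589 libraries above every DMSO library.

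The other falls past 2-fold were ZNF107, ZNF254, ZNF814, ZNF100, ZNF32, ZNF121, ZNF827, ZNF629, ZNF595, ZNF443, ZNF644, ZNF146 and ZNF605, with differences between -1.46 and -1.005. ZNF32, without a KRAB A box, had 9.12, 6.71 and 8.64 FPKM in the LBH589 libraries, against 22.5, 19.2 and 20.3 FPKM in the DMSO libraries (difference -1.25, SE 0.14, limma adjusted p = 7.46e-04). ZNF814, a KRAB gene of chromosome 19, had 4.11, 5.36 and 3.31 FPKM in the LBH589 libraries, against 10.6, 13 and 12.1 FPKM in the DMSO libraries (difference -1.31, SE 0.17, limma adjusted p = 0.00147). ZNF595, a KRAB gene that is on chromosome 4 like ZNF718, had 11.9, 10.7 and 10.5 FPKM in the LBH589 libraries, against 22.4, 24.98 and 24.8 FPKM in the DMSO libraries (difference -1.06, SE 0.10, limma adjusted p = 4.05e-04). In these genes too every LBH589 library was below every DMSO library.

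Along chromosome 19, runs of at least 5 neighbouring members differed in their numbers of rises and falls. The margins between rises and falls were widest in the 2 runs named first below. Runs were formed from members next to each other in RefSeq gene order with at most 2 other protein-coding genes between zinc finger genes, and 8 runs with at least 5 members held 115 of the 264. The runs were defined with the values known, so their counts are a description. For scale, 27.2% of all genes tested rose and 21.6% fell, and 26.1% and 24.1% of those averaging at least 3 FPKM. The run that reaches ZNF14 to ZNF254, which holds ZNF91, had 8 falls and 1 rise among 14 members and a median difference of -0.87. The run ZNF577 to ZNF331, which holds ZNF28, had 14 rises and 3 falls among 29 members and a median of 0.62. The run ZNF680 to ZNF92 on chromosome 7 had 4 falls among 5 members and a median of -0.88. Part of these counts follows from the threshold: 4 of the 8 falls in the run ZNF14 to ZNF254 (ZNF93, ZNF43, ZNF724 and ZNF100), 1 of the 4 falls in the run ZNF680 to ZNF92 (ZNF107) and 4 of the 14 rises in the run ZNF577 to ZNF331 had a mean of 3 FPKM or more in 1 group only. With both means at 3 FPKM or more, 4 of 10 members fell and 1 rose in the run ZNF14 to ZNF254 (median -0.37), 3 of 4 fell in the run ZNF680 to ZNF92 (median -0.80), and 10 of 23 rose and 2 fell in the run ZNF577 to ZNF331 (median 0.60). Members outside the 8 runs numbered 149, of which 35 rose and 29 fell, with a median of 0.08.

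**Figure D3:**
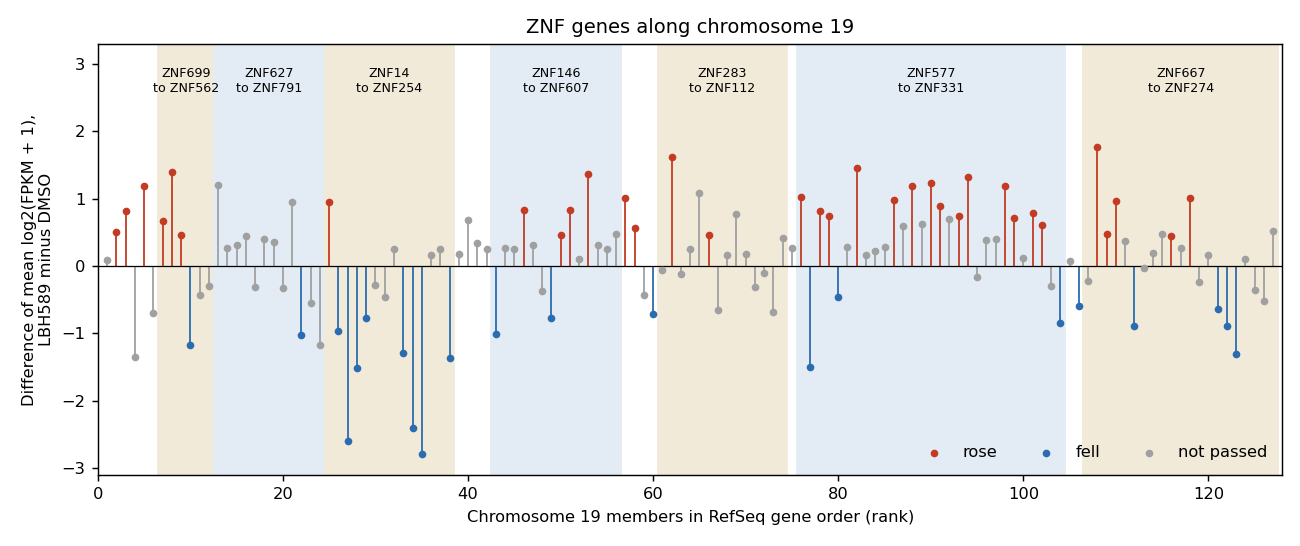
Difference of mean log2(FPKM + 1), LBH589 minus DMSO, for the 127 members on chromosome 19 in RefSeq gene order, with the runs shaded and named by their first and last member. The run ZNF14 to ZNF254 shows 8 falls and 1 rise, 4 of the falls in genes with only the DMSO mean at 3 FPKM or more, and the run ZNF577 to ZNF331 shows 14 rises and 3 falls.

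In the run ZNF14 to ZNF254, all 14 members were KRAB genes. Besides ZNF724, ZNF93, ZNF43 and ZNF85, the falls were ZNF253, ZNF430, ZNF100 and ZNF254. ZNF254 had 5.58, 6 and 4.72 FPKM in the LBH589 libraries, against 12.1, 17.3 and 17.7 FPKM in the DMSO libraries, a difference of -1.36 ± 0.18 (SE; limma adjusted p = 0.00137). ZNF100 had 1.85, 1.99 and 2.36 FPKM in the LBH589 libraries, against 4.84, 7.77 and 7.24 FPKM in the DMSO libraries, a difference of -1.30 ± 0.19 (SE; limma adjusted p = 0.00223). Each of these was lower in every LBH589 library than in any DMSO library. ZNF14, at the end of the run, was the rise, with 8.13, 7.71 and 8.04 FPKM in the LBH589 libraries, against 3.204, 3.95 and 3.77 FPKM in the DMSO libraries (difference 0.95, SE 0.12, limma adjusted p = 0.00113). The 13 ZNF genes of the run that averaged below 3 FPKM are no members; 5 of them fell and 2 rose.

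ZNF91, known to repress SVA elements, did not pass. It had 8.67, 10.5 and 11.5 FPKM in the LBH589 libraries, against 2.99, 15.3 and 13.98 FPKM in the DMSO libraries, and DMSO replicate 1 stood far below the other DMSO libraries. ZNF675, its neighbour, had 4.12, 4.63 and 4.204 FPKM in the LBH589 libraries, against 9.73, 1.6 and 2.14 FPKM in the DMSO libraries, with DMSO replicate 1 far above the other DMSO libraries. The limma adjusted p was 0.823 for ZNF91 and 0.721 for ZNF675. With DMSO replicate 1 left out, the run had 9 falls among its members. ZNF708, ZNF493 and ZNF429 also did not pass, with differences of -0.28, -0.45 and 0.25.

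In the chromosome 7 run, 4 of 5 members fell. ZNF107 had 1.91, 2.43 and 3.18 FPKM in the LBH589 libraries, against 5.35, 10.2 and 11.3 FPKM in the DMSO libraries, a difference of -1.46 ± 0.29 (SE; limma adjusted p = 0.007399). ZNF92 had 7.78, 8.02 and 10.6 FPKM in the LBH589 libraries, against 13.2, 21.02 and 19.4 FPKM in the DMSO libraries, a difference of -0.93 ± 0.21 (SE; limma adjusted p = 0.0117). ZNF680 and ZNF138 fell by less, with differences of -0.88 ± 0.15 (SE) and -0.72 ± 0.18 (SE; limma adjusted p = 0.00413 and 0.0197). In all 4 falls, DMSO replicate 1 was the lowest DMSO library and still lay above every LBH589 library. ZNF117, the member of the run without a KRAB A box, had 8.23, 8.21 and 10.6 FPKM in the LBH589 libraries, against 5.71, 3.7 and 8.903 FPKM in the DMSO libraries, and its groups overlapped.

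In the run ZNF577 to ZNF331, 28 members were KRAB genes and ZNF83 was not. ZNF28 had 14.8, 16.6 and 26.1 FPKM in the LBH589 libraries, against 5.71, 7.18 and 7.86 FPKM in the DMSO libraries, a difference of 1.32 ± 0.23 (SE; limma adjusted p = 0.00462). ZNF841 had 19.7, 14.8 and 15.03 FPKM in the LBH589 libraries, against 3.01, 6.27 and 7.6 FPKM in the DMSO libraries, a difference of 1.46 ± 0.30 (SE; limma adjusted p = 0.00881). ZNF701 had 10.99, 10.1 and 11.8 FPKM in the LBH589 libraries, against 2.64, 4.63 and 5.38 FPKM in the DMSO libraries, a difference of 1.23 ± 0.23 (SE; limma adjusted p = 0.00544). In all 3 the lowest LBH589 library lay well above the highest DMSO library, although LBH589 replicate 3 of ZNF28 and LBH589 replicate 1 of ZNF841 stood above the other 2. The call of ZNF701 was lost with its most abundant transcript alone, at a limma adjusted p of 0.169.

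ZNF350 (ZBRK1), a KRAB repressor that binds BRCA1, had 20.7, 20.4 and 21.3 FPKM in the LBH589 libraries, against 10.2, 11.5 and 12.3 FPKM in the DMSO libraries, a difference of 0.83 ± 0.10 (SE; limma adjusted p = 0.00114). ZNF577 had 21.1, 22.5 and 22.5 FPKM in the LBH589 libraries, against 9.203, 11.6 and 10.2 FPKM in the DMSO libraries, a difference of 1.03 ± 0.11 (SE; limma adjusted p = 6.63e-04). Both had tight groups. The other rises of the run were ZNF615, ZNF610, ZNF528, ZNF83, ZNF600, ZNF347, ZNF845, ZNF765 and ZNF761, with differences between 0.62 and 1.20. The 3 falls were ZNF649, ZNF614 and ZNF331, and ZNF331 had 2.76, 3.49 and 6.35 FPKM in the LBH589 libraries, against 8.26, 9.22 and 6.49 FPKM in the DMSO libraries, with LBH589 replicate 3 close to the lowest DMSO library (difference -0.84, SE 0.28, limma adjusted p = 0.0469). ZNF468 and ZNF611 in this run had 1 library apart: ZNF468 had 17.8, 2.16 and 21.1 FPKM in the LBH589 libraries, against 9.43, 8.21 and 18.4 FPKM in the DMSO libraries. ZNF611 had 8.84, 0.578 and 14.6 FPKM in the LBH589 libraries, against 2.73, 2.14 and 3.81 FPKM in the DMSO libraries, and LBH589 replicate 2 was far below the other LBH589 libraries in both. Genes of these clusters are close copies of each other, so how the quantification divided shared fragments between them can enter each value, and this was not tested.

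With the most abundant transcript alone, the falls in the run ZNF14 to ZNF254 numbered 5, those in the run ZNF680 to ZNF92 numbered 2, and the rises in the run ZNF577 to ZNF331 numbered 7.

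**Figure D4:**
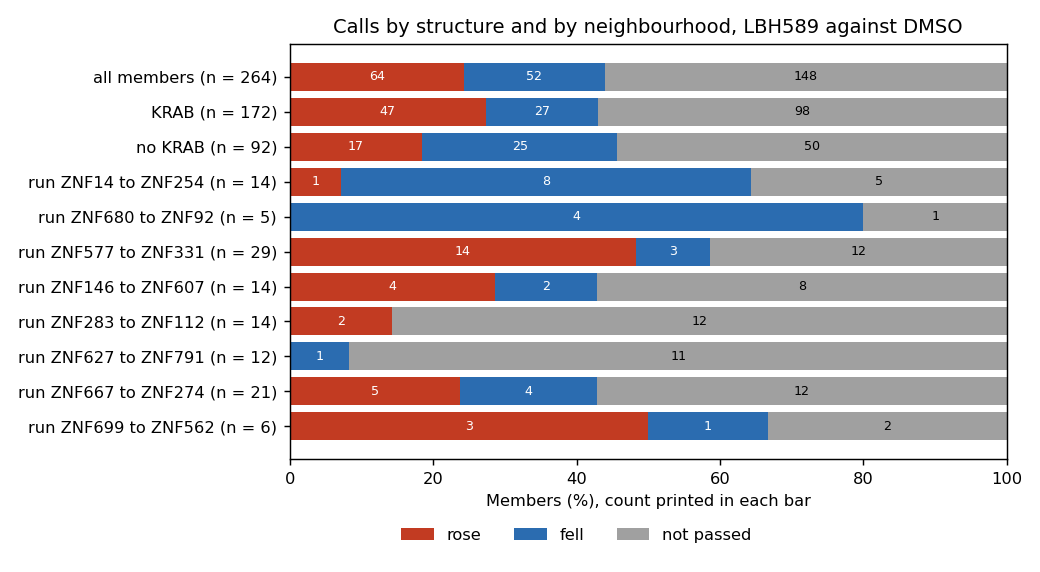
Share of members that rose, fell or did not pass (percent, with the counts in the bars) for all 264 members, by KRAB A box and in each run of neighbours. Falls take the largest share in the runs ZNF14 to ZNF254 (8 of 14) and ZNF680 to ZNF92 (4 of 5), and rises in the runs ZNF577 to ZNF331 (14 of 29) and ZNF699 to ZNF562 (3 of 6). The median difference in the run ZNF699 to ZNF562 was 0.08.

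The other 5 runs had smaller margins between rises and falls, and with so few calls an uneven split says little. In the run ZNF627 to ZNF791, 1 of 12 members passed, the fall of ZNF443, and 7 had groups that did not overlap, a share near the 59.5% of all genes tested. In the run ZNF283 to ZNF112, 2 of 14 passed, both of them rises. Of all genes tested, 48.8% passed. The run ZNF146 to ZNF607 had 4 rises and 2 falls among 14, the run ZNF667 to ZNF274 had 5 rises and 4 falls among 21, and the run ZNF699 to ZNF562 had 3 rises and 1 fall among 6. The median difference in the run ZNF699 to ZNF562 was 0.08. Its 5 members with both means at 3 FPKM or more had 2 rises, 1 fall and a median of -0.30.

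The promoter windows of the runs ZNF14 to ZNF254 and ZNF680 to ZNF92 shared letters that those of the run ZNF577 to ZNF331 lacked. Of the 264 members, 222 had an entry in the promoter table. CCAATCAG, searched on both strands, was in all 13 windows of the run ZNF14 to ZNF254, in 4 of 5 windows of the run ZNF680 to ZNF92 and in 0 of 24 windows of the run ZNF577 to ZNF331. It was in 17.6% of member windows and in 3.81% of the 35116 windows of the same length in the table. The shorter CCAAT, which CCAATCAG contains, was in all windows of the first 2 runs, in 6 of 24 of the third, in 44.1% of member windows and in 32.01% of all windows. CCAAT is the letter sequence that the factor NF-Y is known to bind, but a match here is a description and not a bound site. CCAATCAG was not particular to the runs with many falls. The run ZNF627 to ZNF791 on chromosome 19 held it in every member window but that of ZNF44. In that run 1 of 12 members fell and no member rose, with a median difference of 0.30.

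Windows of the runs ZNF14 to ZNF254 and ZNF680 to ZNF92 also resembled each other in full length. The median identity of aligned windows was 64.6% within the run ZNF14 to ZNF254, 79.1% within the run ZNF680 to ZNF92 and 74.3% between these 2 runs, which lie on different chromosomes. It was 44.8% within the run ZNF577 to ZNF331 and 41.5% between that run and the run ZNF14 to ZNF254. The median number of CpG pairs per window was 8 in the run ZNF14 to ZNF254, 10 in the run ZNF680 to ZNF92 and 19.5 in the run ZNF577 to ZNF331, against 17 over all member windows and 11 over all 35116 windows. Windows that resemble each other in full length are not independent, and neither are their shared letters.

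Across all members, 17 windows held CCAATCAG at least 2 times, and 10 of these genes fell and 1 rose. Of the 17, 10 were in the ZNF91 and chromosome 7 runs, and of the 7 outside them 1 rose and 1 fell. With 1 copy, 4 of 22 rose and 4 fell, and with none, 45 of 183 rose and 29 fell. Of the 10 falls with at least 2 copies, 9 were in the 2 runs. Among these falls, ZNF93, ZNF43, ZNF724 and ZNF107 reached a mean of 3 FPKM only in the DMSO group. Of all genes tested, 27.2% rose and 21.6% fell, and of those averaging at least 3 FPKM, 26.1% and 24.1%.

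Of the listed corepressor and chromatin ZNF genes, 14 were members, and 2 rose, 4 fell and 8 did not pass, with a median difference of 0.14. The 42.9% that passed is near the 48.8% of all genes tested. ZNF532, a partner of the chromatin reader ZMYND8, had 2.33, 2.66 and 5.59 FPKM in the LBH589 libraries, against 23.9, 27.5 and 31.2 FPKM in the DMSO libraries, a difference of -2.72 ± 0.28 (SE; limma adjusted p = 5.53e-04). Its 3 LBH589 libraries were all below 6 FPKM and its DMSO libraries all above 20 FPKM, but the fragments were assigned to different transcripts in different DMSO libraries, and with the most abundant transcript alone the limma adjusted p was 0.158. ZNF827, which recruits NuRD, had 2.19, 1.45 and 1.39 FPKM in the LBH589 libraries, against 4.36, 5.11 and 5.41 FPKM in the DMSO libraries (difference -1.17, SE 0.17, limma adjusted p = 0.0019). ZNF644, which recruits the methyltransferases G9a and GLP, had 5.04, 5.65 and 4.698 FPKM in the LBH589 libraries, against 7.13, 13.6 and 14.9 FPKM in the DMSO libraries (difference -1.01, SE 0.27, limma adjusted p = 0.0222). ZNF503, a corepressor of the NET family, had 2.53, 2.73 and 2.82 FPKM in the LBH589 libraries, against 6.52, 4.67 and 5.04 FPKM in the DMSO libraries (difference -0.78, SE 0.15, limma adjusted p = 0.00621). The 4 falls had no overlap between groups, and the call of ZNF644 was lost in 7 of 17 alternative settings.

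The 2 rises of the list were ZNF143 and ZNF445. ZNF143, an activator of snRNA and other promoters, had 12.6, 10.3 and 9.99 FPKM in the LBH589 libraries, against 5.65, 7.09 and 7.51 FPKM in the DMSO libraries (difference 0.63, SE 0.15, limma adjusted p = 0.0146). With its most abundant transcript alone, the difference was -0.25 (limma adjusted p = 0.732), which is the opposite sign. Its call was also lost with the replicate block and at the stricter threshold. Without LBH589 replicate 1 the call of ZNF143 was lost too, at a limma adjusted p of 0.0521. ZNF445, a KRAB protein that keeps imprints, had 8.704, 5.64 and 8.29 FPKM in the LBH589 libraries, against 2.59, 4.82 and 1.58 FPKM in the DMSO libraries (difference 1.16, SE 0.33, limma adjusted p = 0.0279). That call was lost in 7 of 17 alternative settings, and LBH589 replicate 2 lay close to DMSO replicate 2.

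Members of the same list that did not pass include other well known repressors. ZNF217, a CoREST and LSD1 partner, had 11.9, 11.3 and 10.7 FPKM in the LBH589 libraries, against 9.87, 13.03 and 13.8 FPKM in the DMSO libraries. ZNF281 had 30.7, 30.4 and 39.9 FPKM in the LBH589 libraries, against 17.9, 10.1 and 28.6 FPKM in the DMSO libraries, with DMSO replicate 3 near the LBH589 libraries and a limma adjusted p of 0.0814, while without that library it passed as a rise (difference 1.24, limma adjusted p = 0.0165). ZNF274, a KRAB protein that brings SETDB1 to zinc finger gene clusters, had 4.102, 6.49 and 6.54 FPKM in the LBH589 libraries, against 6.86, 3.64 and 1.64 FPKM in the DMSO libraries, and its DMSO libraries ran across the whole range of the LBH589 libraries. ZNF410, an activator of CHD4, ZNF451, a SUMO ligase, and ZNF148 differed by 0.20, 0.070 and -0.21, with overlapping groups. ZNF703 and ZNF516 had limma adjusted p of 0.0839 and 0.106, with differences of 0.34 and 0.38.

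The partners of KRAB proteins were read from a list of the KAP1 and HUSH machinery, which holds no ZNF gene. Of 11 listed genes, 2 rose, 3 fell and 6 did not pass, and the 45.5% that passed is near the 48.8% of all genes tested. TRIM28, the scaffold, had 23.3, 22.6 and 23.6 FPKM in the LBH589 libraries, against 30.2, 18.9 and 20.5 FPKM in the DMSO libraries, and SETDB1 had 14.6, 13.4 and 12.4 FPKM in the LBH589 libraries, against 13.4, 12.3 and 14.4 FPKM in the DMSO libraries. Neither passed (limma adjusted p = 0.918 and 0.946), and the groups overlapped in both. CHD3, a NuRD helicase, had 2.36, 2.78 and 1.83 FPKM in the LBH589 libraries, against 13.4, 16.1 and 16.1 FPKM in the DMSO libraries, a difference of -2.29 ± 0.15 (SE; limma adjusted p = 1.09e-04). It was the largest change of the list, with every LBH589 library below 3 FPKM and every DMSO library above 10 FPKM.

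The HP1 genes CBX5 and CBX3 fell. CBX5 had 15.4, 16.5 and 11.7 FPKM in the LBH589 libraries, against 26.5, 31.5 and 27.9 FPKM in the DMSO libraries (difference -0.94, SE 0.15, limma adjusted p = 0.00323). CBX3 had 70.7, 71.6 and 58.9 FPKM in the LBH589 libraries, against 125, 123 and 110.5 FPKM in the DMSO libraries (difference -0.82, SE 0.11, limma adjusted p = 0.00168). The remaining HP1 gene, CBX1, had 106, 102 and 106 FPKM in the LBH589 libraries, against 38.8, 48.5 and 126 FPKM in the DMSO libraries, with DMSO replicate 3 far above the other DMSO libraries and a limma adjusted p of 0.198. Without that library CBX1 passed as a rise, with a difference of 1.25 against 0.74 with it (limma adjusted p = 0.00162). MPHOSPH8, a chromodomain subunit of the HUSH silencing complex, had 93.7, 91.2 and 89.3 FPKM in the LBH589 libraries, against 53.5, 52.8 and 58.1 FPKM in the DMSO libraries (difference 0.73, SE 0.085, limma adjusted p = 8.53e-04). MORC2, an ATPase that works with HUSH, had 20.8, 21.8 and 22.1 FPKM in the LBH589 libraries, against 13.03, 9.72 and 9.91 FPKM in the DMSO libraries (difference 0.94, SE 0.13, limma adjusted p = 0.00189). Neither rise had overlapping groups, while the other HUSH subunits, PPHLN1 and TASOR (listed as FAM208A), and ATF7IP, a SETDB1 partner, differed by -0.041, -0.43 and -0.16 and did not pass. Without DMSO replicate 1, FAM208A passed as a fall (difference -0.57, limma adjusted p = 0.0127).

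Of the RNA, ribosome and mitosis ZNF genes, 8 were members, and 1 rose, 4 fell and 3 did not pass, with a median difference of -0.38. The 5 that passed are 62.5% of these few genes, beside 48.8% of all genes tested. ZNF622, whose yeast counterpart Rei1 acts in maturation of the large ribosomal subunit, had 46.7, 45.9 and 49.8 FPKM in the LBH589 libraries, against 30.1, 28.2 and 25.4 FPKM in the DMSO libraries (difference 0.75, SE 0.10, limma adjusted p = 0.00139). ZNF207 (BuGZ), which loads BUB3 at kinetochores, had 40.8, 38.8 and 28.6 FPKM in the LBH589 libraries, against 57.1, 59.4 and 60.6 FPKM in the DMSO libraries (difference -0.71, SE 0.15, limma adjusted p = 0.008899). Neither gene had overlapping groups, and LBH589 replicate 3 was the lowest library of ZNF207. ZNF593, the counterpart of the yeast ribosome factor Bud20, ZNF830 and ZNF326, a subunit of the DBIRD splicing complex, had differences of -0.69 ± 0.22 (SE), -0.43 ± 0.11 (SE) and -0.42 ± 0.13 (SE; limma adjusted p = 0.03999, 0.0172 and 0.0338). Their calls were lost in 8, 5 and 8 of 17 alternative settings. ZNF638, a HUSH recruiter, ZNF598, a sensor of collided ribosomes, and ZNF346, which binds double-stranded RNA, differed by 0.32, -0.041 and -0.35 and did not pass.

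The 6 members of highest mean were ZNF664, ZNF146, ZNF330, ZNF106, ZNF207 and ZNF622. ZNF664 had 109.7, 88.7 and 88.7 FPKM in the LBH589 libraries, against 75.2, 98.04 and 112 FPKM in the DMSO libraries, and its groups overlapped. ZNF146 (OZF), a protein made of fingers alone, had 54.3, 54.4 and 64.2 FPKM in the LBH589 libraries, against 95.8, 134 and 123 FPKM in the DMSO libraries, a difference of -1.01 ± 0.15 (SE; limma adjusted p = 0.00253). Its 2 listed transcripts exchanged places between libraries, with the first at 2.02 FPKM in LBH589 replicate 3 and 50.6 FPKM in LBH589 replicate 1, and with the most abundant transcript alone the limma adjusted p was 0.733. ZNF330, a nucleolar protein, had 115, 52.5 and 97.7 FPKM in the LBH589 libraries, against 66.1, 68.95 and 76.03 FPKM in the DMSO libraries, where LBH589 replicate 2 was below every DMSO library and the other 2 LBH589 libraries were above all of them. It did not pass (limma adjusted p = 0.508), but without LBH589 replicate 2 it passed as a rise (difference 0.59, limma adjusted p = 0.02103).

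Members just inside the mean of 3 FPKM were ZNF589, ZNF790, ZNF443, ZNF396 and ZNF781, with means between 3.001 and 3.14 FPKM. Just outside were ZNF674, ZNF846, ZNF691, ZNF583 and ZNF613, with means between 2.903 and 2.95 FPKM. ZNF589 had 4.66, 3.59 and 4.45 FPKM in the LBH589 libraries, against 4.81, 0.254 and 0.237 FPKM in the DMSO libraries, with DMSO replicate 1 far above the other DMSO libraries. ZNF443 had 2.06, 1.88 and 1.202 FPKM in the LBH589 libraries, against 3.68, 4.59 and 5.28 FPKM in the DMSO libraries, and ZNF396 had 4.27, 4.64 and 5.13 FPKM in the LBH589 libraries, against 1.76, 1.74 and 1.25 FPKM in the DMSO libraries. In ZNF443 every LBH589 library was below every DMSO library, and in ZNF396 every LBH589 library was above every DMSO library.

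Single libraries stood apart in 40 members, that is, 1 library of a group was at least 2 times above or below both others in FPKM + 1. Of these 40, 2 passed, both as rises, and 38 did not pass, and of the other 224, 62 rose and 52 fell. A library apart widens the spread within its group, so such members pass less readily by construction. DMSO replicate 1 stood apart most often, in 18 members and in 12 of them on the low side, against between 4 and 10 members in each other library. The members' median SD of log2(FPKM + 1) was 0.14 among LBH589 libraries and 0.25 among DMSO libraries. Members with 2 or more listed transcripts numbered 211, and in 134 of them the most abundant transcript was not the same in all 6 libraries. Sums over a gene's transcripts are steadier than its single transcripts where fragments move between them, but they add values divided by different lengths.

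Summed FPKM of the members was between 2505 and 2669 in LBH589 libraries and between 2303 and 2794 in DMSO libraries, so the groups overlapped. As a share of all named FPKM, the members held 0.709, 0.692 and 0.753% in LBH589 libraries and 0.5804, 0.629 and 0.683% in DMSO libraries, which did not overlap. That share also depends on the total of all named FPKM. The total was lower in the LBH589 libraries, at 354600 to 366700 FPKM, than in the DMSO libraries, at 396800 to 422200 FPKM. Files of FPKM give no read numbers, so the depth is unknown and no counting interval is given. The 7 melanocyte markers looked up to check the cell type were all listed, and 6 of them fell, with a summed level of 718 to 774 FPKM in LBH589 libraries and 2530 to 2670 FPKM in DMSO libraries. Of 6 fibroblast markers COL1A1 and LUM were listed, and both rose, while COL1A2, COL3A1, DCN and PDGFRB were not listed; the 2 summed to 4.24 to 5.55 FPKM in LBH589 libraries and 1.47 to 2.52 FPKM in DMSO libraries, and of 6 endothelial and immune markers CD68 alone was listed, at 6.69 to 12.4 FPKM in LBH589 libraries and 11.6 to 16.8 FPKM in DMSO libraries. The part of these shifts in the ZNF values was not tested.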

How the data were processed

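Total RNA of 6 samples of the line 92.1 was sequenced from TruSeq RNA libraries, per the labels' protocols. The deposited files hold FPKM per transcript, per the file headers, and the authors list 30624 transcripts. The submitters' processing notes name Bowtie 0.12.2 and hg19, without their roles, and the quantification tool is not given in the sources used here. Transcripts were named through GENCODE 29 (30504 found, 12010 genes) and FPKM was summed per gene.

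The 11520 genes averaging at least 0.5 FPKM were compared with limma 3.58.1 in R 4.3.3 on log2(FPKM + 1), with trend and robust moderation, treatment as the only term and Benjamini-Hochberg adjustment over all of them, called at adjusted p below 0.05. The scale with a pseudocount of 1 understates changes of low genes. FPKM times transcript length showed no clear steps in the LBH589 libraries, so read numbers were not recovered and depth is unknown. The test was checked on simulated data.

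The members, lists and alternatives were chosen with earlier results of these data known. Named genes are the 12 largest rises and falls among called members without overlap, the 6 highest means, the 5 nearest on each side of the mean of 3 FPKM, members of the 2 functional ZNF lists, members listed at 0 and the KAP1 and HUSH list. Other genes in the runs were named after their values were seen. No protein table was used: KRAB A boxes (at least 10 of 15 conserved positions) and fingers were read in GENCODE 29 coding sequences, and promoters were shown in place of the planned protein sequences. Runs follow RefSeq gene order (GRCh38.p14), and coordinates are given only for promoter windows, in that build, because the files use hg19. Motifs were counted with python 3.11.15 and biopython 1.88. Promoter windows were aligned in pairs for their identity. Alternatives were another pseudocount, filters, scalings, limma without trend and robust moderation, a stricter threshold, a replicate block, the most abundant transcript, other member thresholds and leaving out each library, and after the data were seen, equal sums without mitochondrial genes.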

Additional observations from a re-analysis of the deposited data

How the results depend on the processing

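Of the alternatives run, most kept the counts of 64 rises and 52 falls within 1.5 times. With the most abundant transcript alone, 38 members rose and 33 fell, 36 and 32 of them among the main calls, and ZNF143 turned to a difference of -0.25 (limma adjusted p = 0.732). At adjusted p below 0.01, 33 rose and 34 fell, and among members with a mean of at least 10 FPKM, 18 rose and 20 fell; fewer genes enter or pass by construction. Equal library sums gave 86 rises, 39 falls and a median difference of 0.33, against 0.17; without mitochondrial genes in the sums, 62 rose and 47 fell. Over the fits that left out 1 library, rises ranged between 43 and 66, falls between 40 and 59 and the median between 0.093 (without DMSO replicate 1) and 0.21. The cause of these shifts was not tested. In the run ZNF14 to ZNF254, 8 or 9 members fell in each of these fits without 1 library.

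The replicate numbers did not pair the samples: same-numbered libraries had correlations of deviations of -0.10, 0.02 and -0.035. With the replicate block, 51 members rose and 42 fell, 48 and 41 of them among the main calls, and the median was 0.17. Absolute depth is unknown, so how much counting error adds to low members could not be given.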
